A study of Mus musculus with 2 samples.

Results

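Other lymphoid cells of the mouse mitral valve are described here from 2 droplet libraries. They are the T cells, natural killer (NK) cells and innate lymphoid cells in which neither Trdc nor Cd163l1, genes of gamma-delta T cells, was detected. The members were chosen by transcript counts of each barcode. A barcode was kept with at least 1000 UMIs (unique molecular identifiers, each counted as 1 captured transcript), at least 500 genes and at most 20% mitochondrial UMIs. A kept barcode was a member when Ptprcap, Ltb, Cd3d, Cd3e, Cd3g and Nkg7 together had at least 3 UMIs and when Trdc and Cd163l1 had none. It also had fewer than 5 UMIs of the C1q genes, less than 1% of its UMIs from Cd74, H2-Aa, H2-Ab1 and H2-Eb1, and less than 1% from Dcn, Col1a1, Col1a2 and Col3a1. These limits keep out macrophages, antigen-presenting cells and valve interstitial cells. The rule found 174 members among 18630 kept barcodes, 53 of 9440 in the Fbn1 C1039G/+ library and 121 of 9190 in the wild type library.

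The first library came from mitral valves of 3 pooled Fbn1 C1039G/+ mice, which are heterozygous for a cysteine to glycine change in fibrillin-1 and are used as a model of Marfan syndrome. The second came from 5 pooled wild type mice (Fbn1 +/+). The allele differs from wild type by a substitution, so the level of Fbn1 does not check the labels. All mice were of the C57BL/6J strain and 1 month old, both leaflets were taken, and the tissue was freed into single cells with collagenases, dispase, elastase and hyaluronidase. With 1 library per genotype there is no replicate and no test. Intervals are 95% intervals that cover counting error only, and genotype cannot be told apart from the pool of mice, the digestion or the library.

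T cells recognise antigen through a receptor of alpha and beta chains, or of gamma and delta chains, held at the membrane by the CD3 proteins. NK cells lack that receptor and kill through granzymes and perforin after signals from receptors such as NKp46, the product of Ncr1. Group 2 innate lymphoid cells (ILC2) also lack it. They depend on the transcription factor GATA3 and respond to interleukin-33 through ST2, the product of Il1rl1. In solid organs many lymphocytes stay in the tissue, carry CD69 and CXCR6, and lack CCR7, which guides recirculating cells to lymph nodes.

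The genes of the rule show how the members were found, and their values are a description. Ptprcap, which encodes a partner of the CD45 phosphatase, was detected in 49 of 53 Fbn1 C1039G/+ members and 111 of 121 wild type members. Ltb, the lymphotoxin beta gene, was detected in 48 Fbn1 C1039G/+ and 106 wild type members. Nkg7, a granule protein gene of cytotoxic cells, was found in 38 Fbn1 C1039G/+ and 106 wild type members. The median member had 22 UMIs of the 6 genes in the Fbn1 C1039G/+ library and 31 in the wild type library, well above the threshold of 3. Fewer than 12 were found in 10 of 53 Fbn1 C1039G/+ and 10 of 121 wild type members, a larger share in the Fbn1 C1039G/+ library. At the edge, no Fbn1 C1039G/+ member and 1 wild type member had exactly 3 such UMIs, while 5 Fbn1 C1039G/+ barcodes and 1 wild type barcode met every other limit with 2. Those outside were deep barcodes, with medians of 23839 UMIs in the Fbn1 C1039G/+ library and 78685 UMIs in the wild type library.

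The label was checked against T cell receptor transcripts that the rule did not use. Trac, Trbc1 and Trbc2 encode the constant parts of the alpha and beta receptor chains. At least 1 of them was detected in 52 of 53 Fbn1 C1039G/+ members and 117 of 121 wild type members, or 169 of 174 in all. Trbc2 was also in 84.2% of Fbn1 C1039G/+ and 96.2% of wild type gamma-delta T cells, so it does not tell the classes apart. As a description of genes the rule used, the 3 CD3 genes were all detected in 119 members, 2 of them in 28, 1 in 8 and none in 19. In valve interstitial cells, which should lack Cd3e, it was detected in 0.0799% of Fbn1 C1039G/+ and 0.258% of wild type cells, at median depths of 10081 UMIs in Fbn1 C1039G/+ and 10023.5 UMIs in wild type interstitial cells. The members had medians of 3666 UMIs in the Fbn1 C1039G/+ library and 4272 in the wild type library. Of the 17 barcode sequences that both libraries shared, none was a member.

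The promoters of the CD3 genes are shown because these 3 neighbours on chromosome 9 are among the rule's 6 genes and were detected together in most members. The start sites of Cd3d and Cd3g lie 1355 bases apart on opposite strands, and Cd3e starts 27825 bases from Cd3d. RefSeq on GRCm38.p6 had promoters for 5 of the 6 genes of the rule, each covering 250 bases before to 50 bases after the start site. They span chr9:44981536-44981835 on the plus strand (Cd3d), chr9:45009562-45009861 on the minus strand (Cd3e) and chr9:44980382-44980681 on the minus strand (Cd3g). Capitals mark AGGAAG, a core letter run of ETS family sites, on either strand.
Cd3d: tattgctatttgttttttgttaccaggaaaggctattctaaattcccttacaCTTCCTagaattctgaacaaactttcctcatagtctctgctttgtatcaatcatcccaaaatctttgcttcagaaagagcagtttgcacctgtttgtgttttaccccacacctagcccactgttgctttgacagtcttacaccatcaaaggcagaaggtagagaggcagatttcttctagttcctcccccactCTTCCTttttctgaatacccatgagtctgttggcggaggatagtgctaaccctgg
Cd3e: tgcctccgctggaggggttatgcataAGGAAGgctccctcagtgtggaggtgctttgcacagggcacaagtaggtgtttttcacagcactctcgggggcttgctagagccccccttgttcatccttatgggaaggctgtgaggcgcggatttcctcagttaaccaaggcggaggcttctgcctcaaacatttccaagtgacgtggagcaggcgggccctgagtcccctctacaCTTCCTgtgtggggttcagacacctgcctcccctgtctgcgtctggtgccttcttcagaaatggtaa
Cd3g: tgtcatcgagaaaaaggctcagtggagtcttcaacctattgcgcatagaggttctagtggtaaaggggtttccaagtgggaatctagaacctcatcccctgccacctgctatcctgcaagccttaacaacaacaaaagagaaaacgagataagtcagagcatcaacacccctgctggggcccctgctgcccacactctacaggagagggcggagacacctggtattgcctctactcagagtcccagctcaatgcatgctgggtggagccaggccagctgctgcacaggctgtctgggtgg
Cd3d and Cd3e each held 2 such runs and Cd3g none, while 35.1% of all 27025 promoters in the table held at least 1. The run nearest the start site began 5 bases before it in Cd3d and 17 bases before it in Cd3e. TGTGGT, a RUNX run found in 16.9% of promoters, and TATAAA, found in 14.2%, were in none of the 3. The run AGATAA, as bound by the factors of the GATA3 family, was found in 11.4% of promoters and occurred once in Cd3g. Searches covered both strands, the runs do not overlap each other, and a match describes letters only.

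The first question was how many of these cells each valve library held. They made up 0.561% (0.421 to 0.734) of Fbn1 C1039G/+ barcodes and 1.32% (1.09 to 1.57) of wild type barcodes, a difference of -0.755 percentage points (-1.04 to -0.481). Gamma-delta T cells, found by the same limits with Trdc or Cd163l1 present, numbered 19 of 9440 Fbn1 C1039G/+ barcodes and 26 of 9190 wild type barcodes. Their shares of 0.201% in the Fbn1 C1039G/+ library and 0.283% in the wild type library differed by -0.0816 points, with an interval from -0.232 to 0.0626. Both pools held mice of both sexes, so barcodes were also split by Xist and Y-linked transcripts. Among barcodes with Xist and no Y-linked UMI (female), members were 29 of 4588 in the Fbn1 C1039G/+ library and 27 of 4186 in the wild type library, or 0.632% of Fbn1 C1039G/+ and 0.645% of wild type barcodes. Among barcodes with a Y-linked UMI and no Xist (male), they were 9 of 3397 in the Fbn1 C1039G/+ library and 55 of 3747 in the wild type library, or 0.265% of Fbn1 C1039G/+ and 1.47% of wild type barcodes. The difference was -0.0129 points (-0.362 to 0.327) in female and -1.20 points (-1.66 to -0.789) in male barcodes. Whether the sexes differ in this was not tested. The Fbn1 C1039G/+ pool of 3 mice with both sexes has a single mouse of one sex, so sex and mouse cannot be told apart.

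**Figure D1:**
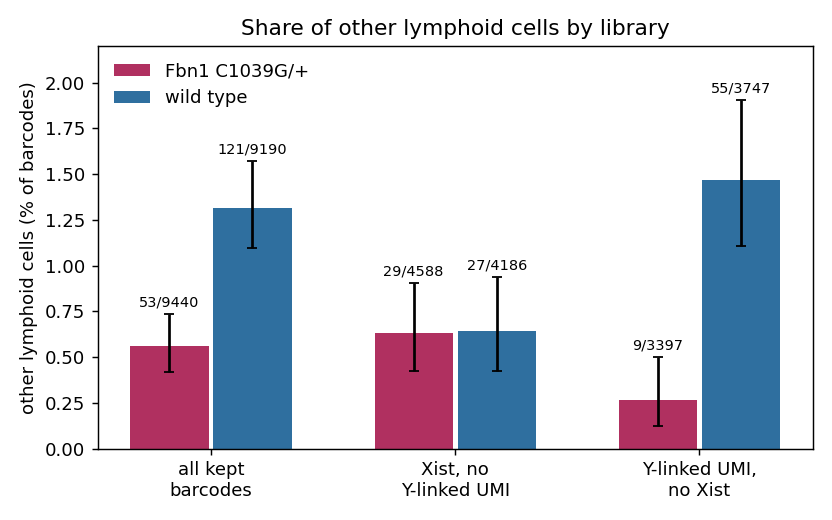
Share of other lymphoid cells among kept barcodes (y axis, percent) in the Fbn1 C1039G/+ and wild type libraries, for all, female and male barcodes; bars are shares, whiskers exact 95% counting intervals, and numbers above are members over barcodes. Female barcodes stand at 0.632% in the Fbn1 C1039G/+ library and 0.645% in the wild type library, while male barcodes stand at 0.265% in the Fbn1 C1039G/+ library and 1.47% in the wild type library.

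Depth differed among the members and bears on every summed level. In all, 1 Fbn1 C1039G/+ member and 9 wild type members had over 3 times the median UMIs of their library, and they held 5.14% of the Fbn1 C1039G/+ and 27.7% of the wild type UMIs. At least 2 UMIs of the endothelial genes Pecam1, Cdh5, Emcn and Egfl7 were found in 1 Fbn1 C1039G/+ and 7 wild type members. A wild type member of 57206 UMIs had 99 endothelial and 11 lymphoid UMIs, and another of 16328 UMIs had 30 endothelial and 3 lymphoid UMIs. Called ratios below kept their direction and their call without the members over 3 times the median (the deep members) unless another value is given.

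**Figure D2:**
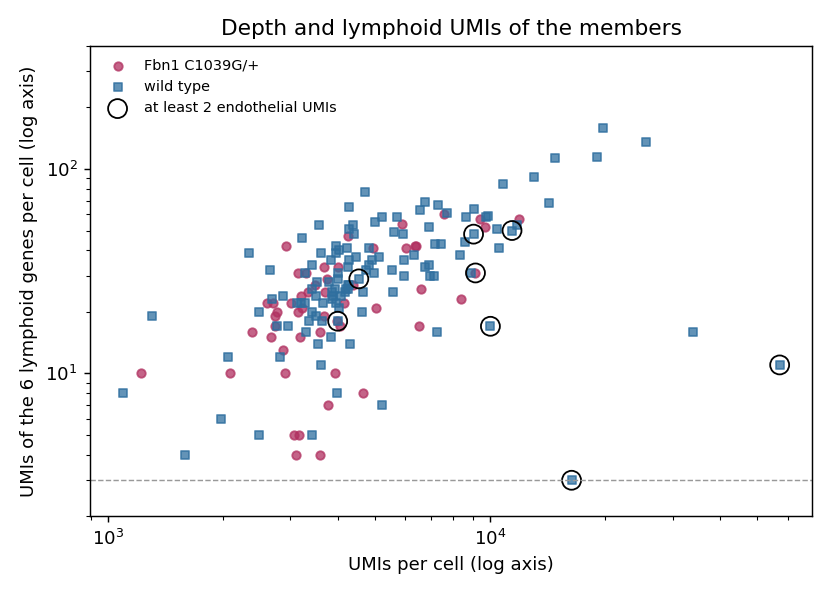
UMIs per cell (x axis, log) against UMIs of the 6 lymphoid genes of the rule (y axis, log) for the 53 Fbn1 C1039G/+ and 121 wild type members; the dashed line is the threshold of 3, and rings mark cells with at least 2 endothelial UMIs. Most members lie along a rising band, while the wild type cells of 57206 and 16328 UMIs lie below it with 11 and 3 lymphoid UMIs.

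Counting by Cd3e, Ncr1 and Gata3 with Il1rl1 gave a T, an NK and an ILC2 gate. In mm10, Cd3e lies on chromosome 9 (44998740 to 45009627, minus strand), Ncr1 on chromosome 7 (4337724 to 4345164, plus strand), Gata3 on chromosome 2 (9857078 to 9890034, minus strand) and Il1rl1 on chromosome 1 (40429570 to 40465415, plus strand). Cd3e, the CD3 epsilon gene, was detected in 28 of 53 Fbn1 C1039G/+ members and 92 of 121 wild type members, or 52.8% (38.6 to 66.7) of Fbn1 C1039G/+ and 76.0% (67.4 to 83.3) of wild type members. The difference was -23.2 points (-38.0 to -7.94), and -17.3 points (-32.0 to -1.0) with every cell thinned to 2000 UMIs. Within sexes it was -11.7 points (-34.3 to 12.9) in female and -28.1 points (-57.9 to 0.120) in male members. Ncr1 was detected in 5 Fbn1 C1039G/+ and 6 wild type members, or 9.43% of Fbn1 C1039G/+ and 4.96% of wild type members, and their difference of 4.48 points had an interval from -3.14 to 15.6. Gata3 and Il1rl1 were detected together in 6 Fbn1 C1039G/+ and 2 wild type members, or 11.3% of Fbn1 C1039G/+ and 1.65% of wild type members. That difference was 9.67 points (2.34 to 20.99), and 4.91 points (-0.471 to 14.8) after thinning, which left 52 Fbn1 C1039G/+ and 117 wild type members. Of the wild type cells, 1 is the member of 16328 UMIs with 30 endothelial UMIs described above. In interstitial cells Gata3 was itself detected in 8.31% of Fbn1 C1039G/+ and 12.4% of wild type cells, and Il1rl1 in 0.173% of Fbn1 C1039G/+ and 0.176% of wild type cells.

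The gates are transcripts and not pure cell types. They overlapped in 2 Fbn1 C1039G/+ and 1 wild type members for Cd3e and Ncr1, and in 1 Fbn1 C1039G/+ member for Cd3e with Gata3 and Il1rl1. A further 17 Fbn1 C1039G/+ and 22 wild type members were in no gate. Of these 39 cells, 36 had a CD3 or receptor chain transcript, so a Cd3e count understates cells with such transcripts at this depth. Trac, Trbc1 or Trbc2 was also in 10 of 11 Ncr1 members and 7 of 8 Gata3 and Il1rl1 members, and whether the 36 are T cells was not tested. Cd3d and Cd3g were seen in 40 and 45 Fbn1 C1039G/+ members and in 108 and 108 wild type members. Summed over members, Cd3d stood at 932 CPM (a gene's UMIs over all UMIs of the members of that library, scaled to 1000000) in the Fbn1 C1039G/+ and 988 CPM in the wild type library, a ratio of 0.943 (0.807 to 1.10). Cd3g stood at 1312 CPM in Fbn1 C1039G/+ and 1259 CPM in wild type members, a ratio of 1.04 (0.913 to 1.19). Cd3e had a lower ratio, 0.704 (0.526 to 0.928), and 0.571 (0.421 to 0.763) without the deep members, with 267 CPM in Fbn1 C1039G/+ and 380.2 CPM in wild type members.

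**Figure D3:**
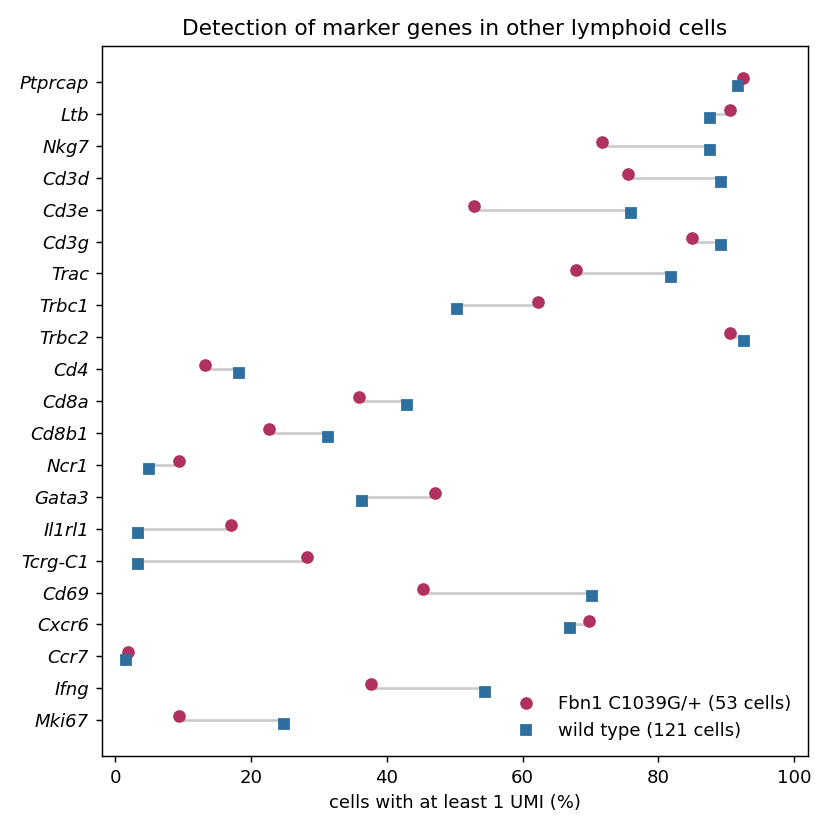
Percent of members with at least 1 UMI (x axis) of rule genes, receptor chains, gate genes and state genes (y axis) in the Fbn1 C1039G/+ library (53 cells, circles) and the wild type library (121 cells, squares). Cd3e was seen in 52.8% of Fbn1 C1039G/+ and 76.0% of wild type members, and Tcrg-C1 in 28.3% of Fbn1 C1039G/+ and 3.31% of wild type members.

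Co-receptors divided the T cells further, with gates added after the values were seen. Cd8a or Cd8b1, the chains of CD8 on cytotoxic T cells, without Cd4 were found in 20 of 53 Fbn1 C1039G/+ and 56 of 121 wild type members. Cd4, the co-receptor of helper T cells, without CD8 genes was found in 7 Fbn1 C1039G/+ and 21 wild type members, both in 1 wild type member, and neither in 26 Fbn1 C1039G/+ and 43 wild type members. The CD8 shares of 37.7% in Fbn1 C1039G/+ and 46.3% in wild type members differed by -8.55 points, with an interval from -23.3 to 7.44. Foxp3, which defines regulatory T cells, had 1 UMI in all, in a wild type cell. Receptor V segments were sparse. Trav segments were seen in 7 Fbn1 C1039G/+ members over 6 segments and in 22 wild type members over 16 segments, and no Trav or Trbv segment was in more than 4 cells of a library, so these 3′ counts give no clone sizes.

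The CD8 group carried a cytotoxic set of transcripts. Gated cells are described here from both libraries together, without members over 3 times the median UMIs or with 2 endothelial UMIs, as CPM in the group against all other members. Among 69 CD8 cells Gzmk, a granzyme gene, stood at 176 CPM against 28.1 CPM (27 cells against 8). Ccl5, a chemokine gene of effector T cells, stood at 12396 CPM in CD8 cells and was detected in 67 of 69. Gzmb stood at 464 CPM against 128 CPM, Cd160, an NK and T cell receptor gene, at 188 CPM against 43.5 CPM, and Ccl4 at 782 CPM against 243 CPM. Ifng, the interferon gamma gene, did not follow the co-receptor, at 338 CPM in CD8 cells against 345 CPM in the others. The 24 Cd4 cells had Cd40lg, the ligand by which helper T cells activate CD40, at 177 CPM against 44.5 CPM and Icos, a co-stimulatory receptor gene, at 418 CPM against 191 CPM. Odc1, which encodes the first enzyme of polyamine synthesis, stood at 514 CPM in Cd4 cells against 125 CPM.

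The Ncr1 gate gathered NK transcripts. In its 10 cells Gzma, the granzyme A gene, stood at 10019.7 CPM against 781 CPM, a ratio of 12.8 (11.3 to 14.6), and was seen in 8 of 10. Tyrobp, the DAP12 adaptor gene, stood at 2293 CPM against 82.9 CPM, and Fcer1g, another adaptor gene, at 3004 CPM against 281 CPM. Klrb1c, which encodes NK1.1, Prf1, the perforin gene, and Irf8 were each detected in 7 or 8 of the 10 cells. Xcl1, a chemokine gene for cross-presenting dendritic cells, stood at 3646 CPM against 403 CPM. Trac was seen in 2 of the 10 and Trbc2 in 4, against 121 and 142 of the other 148 members. Trbc1 was in 7 of the 10, Cd3g in 6, Cd3d in 5 and Cd3e in 3, against 81, 134, 130 and 106 of the others. Of all 11 Ncr1 members, 10 had a Trac, Trbc1 or Trbc2 transcript and 6 had a CD3 transcript, so the gate does not hold only cells without receptor transcripts. Tyrobp and Fcer1g are also macrophage genes, and since the rule itself limits the C1q genes, the part of macrophage transcripts was not tested.

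The Gata3 and Il1rl1 gate was small, and 6 of its 7 cells described here came from the Fbn1 C1039G/+ library. Il7r, the interleukin-7 receptor gene on which innate lymphoid cells depend, was in all 7 and stood at 1435 CPM against 250 CPM. Cysltr1, a leukotriene receptor gene, Serpinb1a, a protease inhibitor gene, and Ramp1, which encodes part of the CGRP receptor, were each in 6 of 7. Kit stood at 261 CPM against 5.71 CPM, in 3 of 7 cells, and Il2ra in 5 of 7. The cytokine genes that mark activated ILC2 were scarce, with Il5 and Areg at 0 UMIs and Il13 at 1 UMI in the 7 cells. Trbc1 was in 7 of 7 and Tcrg-C1 in the 6 from the Fbn1 C1039G/+ library, while Trac and Cd3e were each in 1 and Cd3d in 1. At least 1 of Cd3d, Cd3e and Cd3g was detected in 3 of the 6 Fbn1 C1039G/+ cells of the gate and in 0 wild type cells. By this gate they are cells with Gata3, Il1rl1 and receptor constant-chain transcripts, and some of them have CD3 transcripts.

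Cells outside the Cd3e gate differed from those in it by more than that gene. Trac stood at 723 CPM in 109 Cd3e cells against 360.1 CPM in the other 49, detected in 99 and 24 cells. Tcrg-C1 ran the other way, at 16.3 CPM in Cd3e cells against 259 CPM, and Cd8a was in 54 of 109 against 10 of 49. The genes with the largest ratios for the Cd3e gate, such as Aspm, Aurka and Bub1 of cell division, had no UMI in the 49 other cells. The 36 cells in no gate had Trac in 24 and Trbc2 in 32. Among their leading genes were Ifitm3, an interferon-induced membrane protein gene, at 449 CPM against 77.0 CPM, and transcripts of other cell types, with Apoe at 1455 CPM against 316 CPM and Lum, a proteoglycan gene of interstitial cells, at 191 CPM against 49.1 CPM. Lum was in 7 of these 36 cells.

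**Figure D4:**
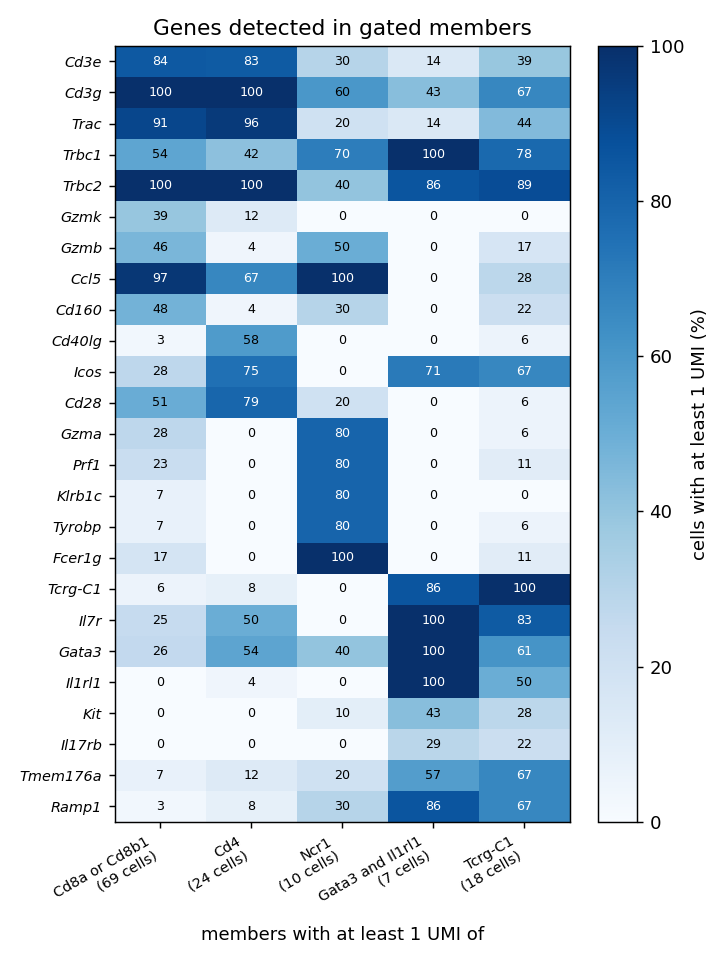
Percent of cells with at least 1 UMI (colour and numbers) of genes named in the text (y axis) in members gated by Cd8a or Cd8b1, Cd4, Ncr1, Gata3 with Il1rl1, and Tcrg-C1 (x axis), both libraries together without members over 3 times the median UMIs or with 2 endothelial UMIs. Ncr1 cells lead in Gzma, Prf1, Klrb1c and Tyrobp, while Gata3 and Il1rl1 cells and Tcrg-C1 cells share Il7r, Tmem176a and Ramp1; gate genes are 100 by construction, and 6 cells are in both of those last groups.

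The libraries also differed in cells with Tcrg-C1, which encodes a constant part of the T cell receptor gamma chain (mm10 chromosome 13, 19214103 to 19217024, plus strand). It was detected in 15 of 53 Fbn1 C1039G/+ members and 4 of 121 wild type members, or 28.3% (16.8 to 42.3) of Fbn1 C1039G/+ and 3.31% (0.908 to 8.25) of wild type members, a difference of 25.0 points (13.6 to 38.4). Its level was 224 CPM (168 to 294) in the Fbn1 C1039G/+ library and 6.47 CPM (2.10 to 15.1) in the wild type library, a ratio of 34.7 (14.0 to 111). After thinning to 2000 UMIs it was in 13 of 52 Fbn1 C1039G/+ members and in 0 of 117 wild type members, with an exact interval up to 3.1%. By share the difference was 16.7 points (-3.19 to 35.5) in female and 31.5 points (8.86 to 62.8) in male members. The ratio of levels was above 1 in both sexes, at 8.27 (2.45 to 43.5) in female and 94.2 (14.1 to 4002) in male members. All 19 Tcrg-C1 cells also had a Trac, Trbc1 or Trbc2 transcript, and 5 had a CD8 gene. Reads of the gamma constant genes Tcrg-C1, Tcrg-C2 and Tcrg-C4 can be hard to place because the copies are alike, and Tcrg-C4 stood at 69.0 CPM in Fbn1 C1039G/+ and 23.3 CPM in wild type members.

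The 18 Tcrg-C1 cells that were not deep or endothelial-marked held Il1rl1 in 9, Gata3 in 11, Il7r in 15, Tmem176a in 12 and Ramp1 in 12. They lacked the interleukin-17 programme of gamma-delta T cells, since Il17a, Sox13, Blk and Il23r had 0 UMIs. In the gamma-delta T cells of these libraries Il17a was found in 36.8% of Fbn1 C1039G/+ and 26.9% of wild type cells, and Blk in 68.4% of Fbn1 C1039G/+ and 46.2% of wild type cells. Tcrg-C1 itself was in 84.2% of Fbn1 C1039G/+ and 69.2% of wild type gamma-delta T cells. A gamma-delta T cell whose Trdc went uncaptured would pass the rule, and how many such cells the members hold was not tested.

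Across genes, 2969 were measured in the members, with at least 20 CPM in either library and 50 UMIs over both. By a ratio of at least 1.5 and a counting interval that excluded 1, 68 genes (2.29%) were higher in the Fbn1 C1039G/+ members and 294 (9.9%) lower. An interval of this kind is not adjusted for the number of genes, and up to 2.5% of unchanged genes pass each of its bounds through counting error alone. That is a ceiling for the bound, since a call also needs a ratio of at least 1.5. The share of higher genes, 2.29%, is under this ceiling, and how many of them come from counting error is not known. Scaling the libraries by their median gene ratio gave 128 higher and 218 lower genes. The median log2 ratio of all measured genes was -0.10. Without the members over 3 times the median UMIs, 2287 genes were measured, of which 54 (2.36%) were higher and 184 (8.05%) lower.

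Of the 10 largest ratios 7 belonged to genes that stood higher in gamma-delta T cells than in the members of both libraries, namely Tcrg-C1, Ramp1, Serpinb1a, Tmem176b, Socs1, Tmem176a and Coro2a. No minimum fold was set for this, and the share of all measured genes that stood higher there was not counted, so the 7 is a description only. Ramp1 (chromosome 1, 91179822 to 91225196, plus strand) stood at 151 CPM in the Fbn1 C1039G/+ library and 36.2 CPM in the wild type library, a ratio of 4.17 (2.46 to 7.12). Serpinb1a stood at 129 CPM in Fbn1 C1039G/+ and 38.8 CPM in wild type members, and the membrane protein genes Tmem176b and Tmem176a had ratios of 3.07 (1.88 to 5.00) and 2.73 (1.80 to 4.12). In gamma-delta T cells Ramp1 stood at 966 CPM in Fbn1 C1039G/+ and 569 CPM in wild type cells, and Tmem176a at 1617 CPM in Fbn1 C1039G/+ and 735 CPM in wild type cells. By sex the ratios of Ramp1, Serpinb1a, Tmem176b and Tmem176a ran in opposite directions, from 0.471 to 0.979 in female and from 2.67 to 13.3 in male members, and only 9 Fbn1 C1039G/+ members were male. Socs1, an inhibitor of cytokine signalling, had a ratio of 2.79 (1.80 to 4.32), with 1.79 in female and 2.29 in male members. Tnfrsf18, the GITR gene of activated and regulatory T cells, stood at 306 CPM in Fbn1 C1039G/+ and 124 CPM in wild type members, a ratio of 2.47 (1.79 to 3.39). It was above 1 in both sexes, at 1.86 (1.08 to 3.26) in female and 3.03 (1.65 to 5.37) in male members. Mfng, a modifier of Notch receptors, Coro2a and Hint2 made up the rest, with ratios of 3.08, 2.58 and 2.45. Without the deep members Serpinb1a had a ratio of 5.87 (2.97 to 12.3), Mfng of 2.78 (1.49 to 5.19) and Hint2 of 2.93 (1.54 to 5.62), but these 3 genes fell under the minimum of 50 UMIs and had no call.

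Most of the 10 smallest ratios rested on a few wild type cells. Gzmc, a granzyme gene, had 60 UMIs in 4 wild type cells and none in the Fbn1 C1039G/+ library. Wif1, Itih5, Vcam1, Aqp1, Nfia, Serpinh1 and H19 had 1 UMI each in the Fbn1 C1039G/+ library, and 5 wild type cells held between 86.5% and 100% of their wild type UMIs. Several are genes of stroma or endothelium, and Serpinh1, a collagen chaperone gene, was in 97.0% of wild type interstitial cells. Without members over 3 times the median UMIs the intervals of Wif1, Itih5, Vcam1, H19, Nfia and Serpinh1 reached past 1. Nr4a2, an immediate early nuclear receptor gene, was different, with UMIs in 2 of 53 Fbn1 C1039G/+ and 39 of 121 wild type members, at 8.63 CPM in Fbn1 C1039G/+ and 91.8 CPM in wild type members. Its ratio was 0.0940 (0.0112 to 0.352), and 0.0862 (0.0102 to 0.326) without the deep members. Id3, an inhibitor of E proteins, stood at 12.9 CPM in Fbn1 C1039G/+ and 101 CPM in wild type members, with 79.5% of the wild type UMIs in 5 cells. Of the 10 genes, only Nr4a2 was still measured and called without the deep members.

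**Figure D5:**
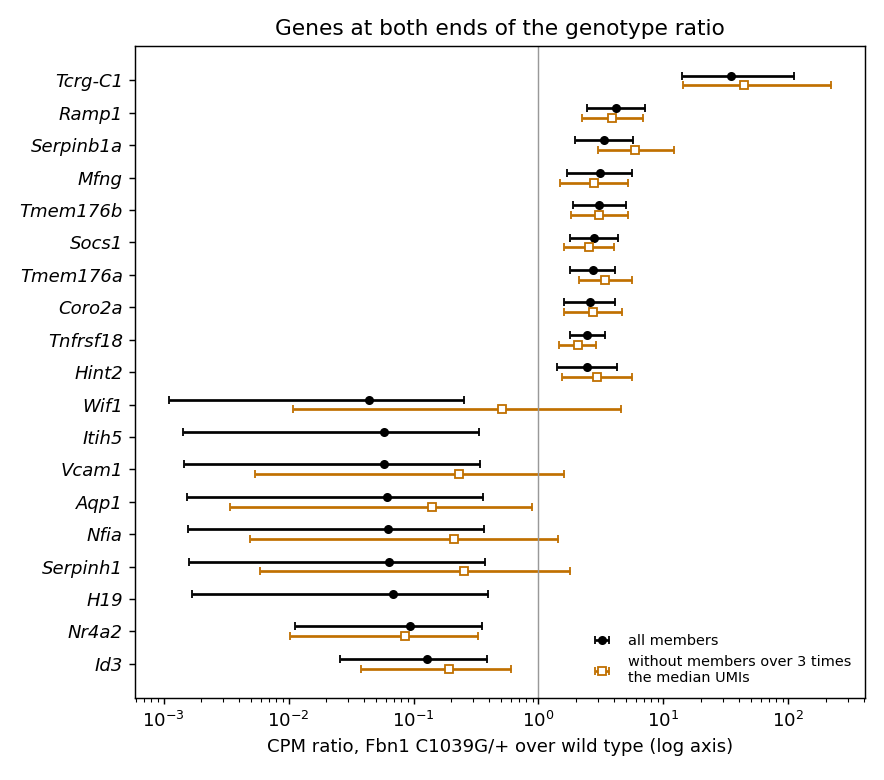
Ratio of CPM in Fbn1 C1039G/+ over wild type members (x axis, log) for the genes with the 10 largest and 9 of the 10 smallest ratios (y axis; Gzmc, with 0 UMIs in the Fbn1 C1039G/+ library, has no point), with 95% counting intervals; filled circles are all members and open squares leave out members over 3 times the median UMIs. The squares of the 10 larger ratios stay above 1 and that of Nr4a2 stays at 0.0862, while the squares of Wif1, Vcam1, Nfia and Serpinh1 move towards 1; Itih5 and H19 have no finite square.

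Immediate early genes, switched on by activation and also by digestion of tissue, were lower in the Fbn1 C1039G/+ members. Of 11 measured members of the list 6 were lower and none higher, against 9.9% lower among all measured genes, and 7 of 10 were lower without the deep members. The list median was -0.78 on the log2 scale, against -0.10 over all genes. Nr4a1 stood at 34.5 CPM in Fbn1 C1039G/+ and 119 CPM in wild type members, a ratio of 0.290 (0.122 to 0.596). Jun stood at 38.8 CPM in Fbn1 C1039G/+ and 141 CPM in wild type members, a ratio of 0.275 (0.123 to 0.542), and 0.432 (0.187 to 0.883) without the deep members. Dusp1, a phosphatase gene that limits MAP kinases, stood at 155 CPM in Fbn1 C1039G/+ and 292 CPM in wild type members, and Ier2 at 164 CPM in Fbn1 C1039G/+ and 282 CPM in wild type members. Fos was closer, at 186 CPM in Fbn1 C1039G/+ and 237 CPM in wild type members. Other cells of the libraries had lower values too. In interstitial cells Nr4a1 stood at 105 CPM in Fbn1 C1039G/+ and 222 CPM in wild type cells, and in gamma-delta T cells at 44.9 CPM in Fbn1 C1039G/+ and 94.9 CPM in wild type cells. Jun stood at 392 CPM in Fbn1 C1039G/+ and 542 CPM in wild type interstitial cells. The part of tissue digestion was not tested.

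Some genes of T cell signalling were lower. Of 12 measured genes of the list 4 were lower and none higher, against 9.9% lower of all measured genes, or 6 of 12 without the deep members, against 8.05%. Cd6, a co-receptor gene of mature T cells, stood at 56.1 CPM in Fbn1 C1039G/+ and 175 CPM in wild type members, a ratio of 0.321 (0.167 to 0.568). Cd5, which damps receptor signalling, stood at 77.7 CPM in Fbn1 C1039G/+ and 189 CPM in wild type members, and Ubash3a, another negative regulator, at 30.2 CPM in Fbn1 C1039G/+ and 95.7 CPM in wild type members. Zap70, the kinase bound to the receptor, had a ratio of 0.585 (0.327 to 0.985). Lck, Lat and Skap1 had ratios of 1.16, 0.985 and 1.10, each with an interval across 1. The share of members with Cd3e differed in the same direction, so fewer such cells and less RNA per cell cannot be told apart here.

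Effector cytokines were partly lower. Ifng was detected in 20 of 53 Fbn1 C1039G/+ and 66 of 121 wild type members and stood at 220.0 CPM in Fbn1 C1039G/+ and 344 CPM in wild type members, a ratio of 0.640 (0.464 to 0.866). Ccl4 stood at 181 CPM in Fbn1 C1039G/+ and 515 CPM in wild type members, and Ccl3 at 25.9 CPM in Fbn1 C1039G/+ and 77.6 CPM in wild type members. Of 7 measured cytokine and growth factor genes 3 were lower and none higher, against 9.9% lower and 2.29% higher of all measured genes. Ccl5, the most abundant of them, had a ratio of 1.45 (1.37 to 1.53), and 1.16 (1.09 to 1.22) without the deep members. Of 8 measured cytotoxic granule genes 1 was higher, Prf1, and 1 lower, Fasl, the Fas ligand gene, against 2.29% higher and 9.9% lower of all genes. Without the deep members Prf1 had a ratio of 1.46 (0.787 to 2.65) and lost its call. Gzma stood at 1225 CPM in Fbn1 C1039G/+ and 1137 CPM in wild type members, detected in 13 and 24 cells.

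Il7r, Ccr2 and Cxcr6, receptor genes of survival and homing, were higher in the Fbn1 C1039G/+ members. Il7r stood at 423 CPM in Fbn1 C1039G/+ and 175 CPM in wild type members, a ratio of 2.42 (1.85 to 3.16), and 1.93 (1.47 to 2.53) without the deep members. Ccr2, a receptor for monocyte chemoattractant proteins, stood at 358 CPM in Fbn1 C1039G/+ and 175 CPM in wild type members, a ratio of 2.05 (1.54 to 2.72), and 1.53 (1.13 to 2.05) without the deep members. In female members alone the ratios were 0.975 (0.641 to 1.47) for Il7r and 1.02 (0.656 to 1.57) for Ccr2. Bcl2, which protects cells from apoptosis, had a ratio of 2.00 (1.35 to 2.94). Of 8 measured cytokine receptor genes 1 was higher, Il7r, and of 5 chemokine receptor genes 2 were, Ccr2 and Cxcr6, against 2.29% of all measured genes. Cxcr6 lost its call without the deep members. Of 9 measured interferon-response genes 1 was higher, Bst2, or tetherin, at 557 CPM in Fbn1 C1039G/+ and 275 CPM in wild type members, against 2.29% of all measured genes. Without the deep members 1 of the 9, Bst2, was higher and 2 were lower. The ILC3 list had both of its measured genes higher, Tmem176a and Tmem176b, against 2.29% higher of all measured genes. These 2 genes are neighbours on chromosome 6, and in female members their ratios were 0.471 and 0.979. The defining genes of the list, Il22 and Il23r, were at 0 and 17.3 CPM in Fbn1 C1039G/+ and both at 0 in wild type members.

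Markers of residence were common in both libraries. Cxcr6, Cd69 or Itga1 was detected in 43 of 53 Fbn1 C1039G/+ and 110 of 121 wild type members. Cxcr6 stood at 600 CPM in Fbn1 C1039G/+ and 340 CPM in wild type members, a ratio of 1.76 (1.43 to 2.17), and 1.31 (1.04 to 1.64) without the deep members. Cd69 stood at 267 CPM in Fbn1 C1039G/+ and 345 CPM in wild type members, a ratio of 0.775 (0.578 to 1.02), and 0.633 (0.462 to 0.854) without the deep members.

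Most measured cell cycle genes were lower in the Fbn1 C1039G/+ members. At least 4 of 11 cell cycle genes were detected in 6 of 53 Fbn1 C1039G/+ and 28 of 121 wild type members, or 11.3% of Fbn1 C1039G/+ and 23.1% of wild type members, a difference of -11.8 points (-22.1 to 1.24). After thinning to 2000 UMIs, at least 4 of the genes were in 7.69% of Fbn1 C1039G/+ and 19.7% of wild type members, a difference of -12.0 points (-21.3 to 0.205). At least 2 were then in 9.62% of Fbn1 C1039G/+ and 28.2% of wild type members, a difference of -18.6 points (-28.9 to -5.36). Of 10 measured cell cycle genes 8 were lower and none higher, against 9.9% lower of all measured genes, or 5 of 10 without the deep members, against 8.05%. Mki67, the Ki-67 gene, stood at 138 CPM in Fbn1 C1039G/+ and 308 CPM in wild type members, a ratio of 0.449 (0.300 to 0.651), and 0.276 (0.151 to 0.472) without the deep members, and Top2a, a topoisomerase of dividing cells, at 224 CPM in Fbn1 C1039G/+ and 460 CPM in wild type members. Ube2c, a ubiquitin-conjugating enzyme gene of mitosis, stood at 311 CPM in Fbn1 C1039G/+ and 288 CPM in wild type members. Without dividing members the count of lower genes among all measured genes was 113, against 294 with them. Fewer members also leave fewer UMIs and fewer measured genes, and the share for the 113 is not given, so the 2 counts are not directly comparable.

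Transcripts of other cell types were low but not absent. All 5 neutrophil genes were at 0 UMIs, as were Cd79a and Ms4a1 of B cells and Jchain of plasma cells. The endothelial list summed to 77.7 CPM in Fbn1 C1039G/+ and 260 CPM in wild type members, with 3 of 3 measured genes lower. Without the deep members it summed to 81.9 CPM in Fbn1 C1039G/+ and 123 CPM in wild type members, and no gene of it was measured. The interstitial list, with Dcn and the collagens that the rule limits, summed to 488 CPM in Fbn1 C1039G/+ and 1440.5 CPM in wild type members, with 5 of 6 lower, against 9.9% of all measured genes. Without the deep members it summed to 505 CPM in Fbn1 C1039G/+ and 694 CPM in wild type members, with 3 of 4 lower, against 8.05%. The rule caps Dcn, Col1a1, Col1a2 and Col3a1 in every member, so these counts of lower genes are a description only. Hemoglobin genes summed to 86.3 CPM in Fbn1 C1039G/+ and 11358 CPM in wild type members, and 5 wild type cells held 99.7% of the Hbb-bs UMIs. Without the deep members the hemoglobin genes summed to 86.4 CPM in Fbn1 C1039G/+ and 15691 CPM in wild type members, so that step does not remove them. The part of these transcripts of other cell types in the other results was not tested beyond the values without deep or endothelial-marked members.

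Against gamma-delta T cells of the same library, 2292 genes were measured. Of these 51 (2.23%) were at least 2-fold higher and 47 (2.05%) at least 2-fold lower in the other lymphoid cells of both libraries, with the genes of the rule left out. Cd28, the main co-stimulatory receptor gene of alpha-beta T cells, stood at 198 CPM in members and 0 CPM in gamma-delta T cells of the Fbn1 C1039G/+ library, and at 234 CPM in members and 17.8 CPM in gamma-delta T cells of the wild type library. Themis, needed for alpha-beta T cell selection in the thymus, stood at 108 CPM in members and 11.2 CPM in gamma-delta T cells of the Fbn1 C1039G/+ library, and at 109 CPM in members and 5.93 CPM in gamma-delta T cells of the wild type library. Sh2d1a, the SAP adaptor gene, had ratios of 4.32 (1.58 to 16.5) in the Fbn1 C1039G/+ and 9.67 (3.24 to 47.5) in the wild type library. The interferon-induced genes Isg15 and Ifi27l2a were higher as well, by 5.51 and 22.2 times in the Fbn1 C1039G/+ and by 8.50 and 10.7 times in the wild type library. Cenpf, a mitosis gene, was among the 10 largest, and Ccl21a came from 1 cell in each library.

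In the other direction Il17a had no UMI in any member, against 449 CPM in Fbn1 C1039G/+ and 593 CPM in wild type gamma-delta T cells. Blk, a kinase gene of interleukin-17 producing gamma-delta T cells, stood at 4.31 CPM in members and 438 CPM in gamma-delta T cells of the Fbn1 C1039G/+ library, and at 0 CPM in members and 314 CPM in gamma-delta T cells of the wild type library. Pdcd1, the PD-1 gene, was lower in members, with ratios of 0.0329 (0.00648 to 0.104) in the Fbn1 C1039G/+ and 0.0969 (0.0542 to 0.167) in the wild type library. Actn2, Ckb, Avpi1 and Ltb4r1, a leukotriene B4 receptor gene, were all lower with ratios from 0.0299 to 0.131. With 19 and 26 gamma-delta T cells in the Fbn1 C1039G/+ and wild type libraries, a gene at 0 in them is at a low count and its ratio has only a lower bound.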

How the data were processed

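The deposited files hold raw UMI counts, 1 per gene and barcode, which the authors produced on mm10 using Cell Ranger. Its version is 3.1.0 per the submitters' processing notes and 5.0.1 per the file headers. Free RNA was not subtracted. Libraries of 9744 Fbn1 C1039G/+ and 9509 wild type barcodes held 103663375 and 100969482 UMIs.

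UMIs were summed over members per library and given as CPM, with no pseudocount. For intervals, all at 95%, levels used the Poisson distribution, ratios the binomial conditional on both counts, shares Clopper-Pearson and differences of shares Newcombe's method. Barcodes over 2000 UMIs were thinned with a fixed seed. Genes were placed with GENCODE M21 (32235 of 32285 matched). Ratio calls were tested on simulated data with independent counts for each gene, which does not cover genes whose UMIs lie in a few cells. Scrublet in scanpy 1.11.5 marked 0.0106% of Fbn1 C1039G/+ and 0% of wild type barcodes, so its automatic call did not work and doublets were left in; an alternative drops the highest scores. Python 3.11.15, numpy 2.4.6 and scipy 1.17.1 were used.

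The members, the 34 gene lists and the rules were chosen with earlier results of these data known. Named genes were the 10 largest and 10 smallest ratios of each comparison, the leading genes of each gate (at least 20 UMIs) and the most abundant genes of each list, without mitochondrial, ribosomal, hemoglobin, immunoglobulin, sex-linked or unnamed genes. The gates on Cd4, CD8 and Tcrg-C1 and other genes were chosen after their values were seen.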

Additional observations from a re-analysis of the deposited data

Results flagged for a closer look

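Several results had opposite directions in female and male members, and none of these differences between sexes was tested. The share of gamma-delta T cells among barcodes differed by 0.0268 points in female and -0.256 points in male barcodes (Fbn1 C1039G/+ minus wild type). The share of dividing members differed by -7.92 points in female and 2.42 points in male members. The share of CD8 members differed by 22.6 points in female members (13 of 29 Fbn1 C1039G/+ and 6 of 27 wild type) and by -36.0 points in male members (2 of 9 and 32 of 55).

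Among the named genes the ratio of Fbn1 C1039G/+ over wild type was 0.849 in female and 13.3 in male members for Ramp1, 0.689 and 4.96 for Serpinb1a, 0.979 and 5.27 for Tmem176b, and 0.471 and 2.67 for Tmem176a. For Wif1 it was 1.24 in female and 0 in male members, from 1 UMI in the Fbn1 C1039G/+ library.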

How the results depend on the processing

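Over 83 recomputed values, 76 stayed within the counting interval of the reported share or within 1.5 times the reported count, and 7 moved. None reversed, but only a share whose reported interval excluded 0 could be labelled so, which leaves out the gene counts and the Ncr1 share. The difference in the share of members among barcodes ranged from -0.779 to -0.514 points, and that of Cd3e cells from -26.1 to -17.3 points, each with an interval below 0 in every alternative. The Gata3 and Il1rl1 difference ranged from 4.91 to 14.8 points, with an interval above 0 in 8 of 11 alternatives, and the Ncr1 difference from 4.34 to 7.05 points, with an interval across 0 in all 9. With no filter on low counts 215 genes were higher and 522 lower, and scaling by the median ratio gave 128 higher and 218 lower. The count of lower genes was 123 in Cd3e cells alone, 184 without members over 3 times the median UMIs and 113 without dividing members (both chosen after seeing the data, as was leaving out endothelial-marked members). Leaving cells out also changes how many genes are measured, at 2287 without members over 3 times the median UMIs against 2969 with all. The cause was not tested. Against gamma-delta T cells, 88 genes were lower with no CPM minimum. No paired analysis was possible because each genotype has 1 library. With 53 Fbn1 C1039G/+ and 121 wild type cells, genes under 20 CPM could not be compared.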
